A study of Mus musculus with 2 samples.

Results

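Gt(ROSA)26Sor, the noncoding transcript of the mouse Rosa26 locus, was examined together with the genes on either side of it, Thumpd3 and Setd5. The 3 genes were taken by symbol from the 31053 genes listed in both deposited count matrices, and each symbol named 1 row. They were chosen by earlier results of these data, namely the level of Gt(ROSA)26Sor in the tdTomato-positive cDC1-like cells, which was lower than in the tdTomato-negative ones. Their levels in the cell classes are therefore given as a description. The cells were splenic conventional dendritic cells (cDCs) of mice carrying Il7r-cre and Rosa26-lsl-tdTomato, naive and 7 to 9 weeks old, enriched by CD11c beads and sorted by flow cytometry. L-cDC is the library of the tdTomato-positive cells, and M-cDC is that of the tdTomato-negative cells. Both libraries came from mice with the same 2 alleles, a Cre recombinase under control of Il7r and a Rosa26 reporter with a floxed stop, and no mouse without them was analysed here. Each group was 1 library, and the number of mice behind it and whether 1 or both Rosa26 copies carried the reporter are not given in the sources used here. The sort separates cells by expression of a reporter placed in the locus studied, so that recombination of the reporter and any other difference between the sorted cells cannot be told apart. With 1 library a group no test between groups was possible. Intervals below are 95% intervals for counting error only.

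Rosa26 was found in a gene trap screen as a site active in nearly all mouse tissues, and it became the usual place for reporters and other transgenes. Insertions are commonly made in the first intron of its noncoding transcript, where a cassette preceded by a floxed stop is silent until Cre removes the stop. Il7r encodes a receptor chain of lymphoid progenitors and lymphocytes, so in such mice the reporter marks cells that have, or whose precursors had, Cre under Il7r control. THUMPD3, the product of Thumpd3, is a tRNA guanosine methyltransferase that works with TRMT112. SETD5 is a chromatin protein with a SET domain that is found with the NCoR-HDAC3 and PAF1 complexes.

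In GRCm38 (GENCODE M21 annotation), Gt(ROSA)26Sor (ENSMUSG00000086429) lies on the minus strand of chromosome 6 from 113067428 to 113077333 and is annotated as a noncoding gene with 4 transcripts. Setd5 (ENSMUSG00000034269) lies on the plus strand from 113077365 to 113153435, so that the outermost starts of the 2 genes stand head to head with 31 bases between them. Thumpd3 (ENSMUSG00000030264) lies on the plus strand from 113046225 to 113068273 and meets the end of Gt(ROSA)26Sor tail to tail. These bodies share 846 bases. Of the 1695 exonic bases of Gt(ROSA)26Sor, 145 (8.55%) are complementary to exonic bases of Thumpd3, all of them coding there, and none are shared with Setd5 exons. All 4 transcripts skip a first intron of 5632 to 5738 bases.

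**Figure D1:**
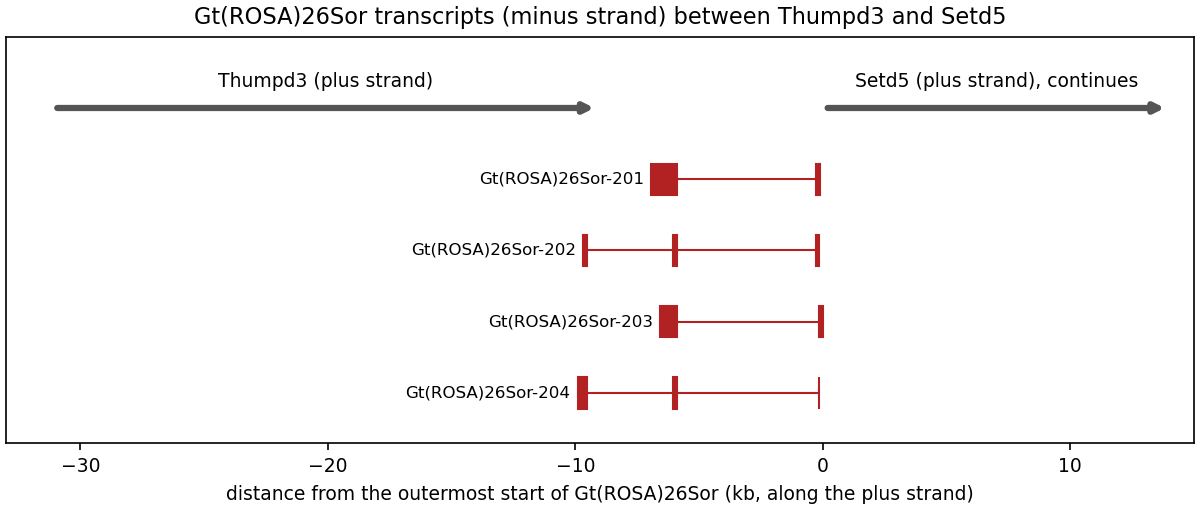
Map of the 4 annotated Gt(ROSA)26Sor transcripts (boxes: exons; lines: introns) below arrows for Thumpd3 and Setd5, with distance from the outermost Gt(ROSA)26Sor start in kb along the plus strand. Transcripts 202 and 204 reach into Thumpd3, transcripts 201 and 203 stop before it, and the Setd5 arrow is drawn only in part.

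The sequences below are shown because they set which reads can be assigned to Gt(ROSA)26Sor. They are read 5′ to 3′ on the minus strand from the GENCODE M21 transcripts. The longest first exon (chr6:113077174-113077333, transcript 203) is the part nearest to Setd5. In the junctions the capitals mark the first 20 bases of exon 2, whose start is shared by the 4 transcripts and follows the intron where reporters are commonly placed.
First exon, Gt(ROSA)26Sor-203: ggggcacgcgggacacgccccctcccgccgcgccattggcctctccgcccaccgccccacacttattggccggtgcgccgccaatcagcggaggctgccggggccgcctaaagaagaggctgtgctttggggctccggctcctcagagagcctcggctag
Junction of exons 1 and 2, Gt(ROSA)26Sor-201: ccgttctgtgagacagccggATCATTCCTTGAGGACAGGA
Junction of exons 1 and 2, Gt(ROSA)26Sor-203: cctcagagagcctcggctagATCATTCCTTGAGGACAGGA

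The kit primes from the poly(A) tail, so the ends of the transcripts matter most for counting. The last 60 bases of each are printed with the poly(A) signal hexamers AATAAA or ATTAAA in capitals, which were searched on the transcript strand alone.
Last 60 bases, Gt(ROSA)26Sor-201, chr6:113070398-113070457: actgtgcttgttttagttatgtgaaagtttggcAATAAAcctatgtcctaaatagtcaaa
Last 60 bases, Gt(ROSA)26Sor-202, chr6:113067659-113067718: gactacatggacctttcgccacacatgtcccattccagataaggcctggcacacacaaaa
Last 60 bases, Gt(ROSA)26Sor-203, chr6:113070774-113070833: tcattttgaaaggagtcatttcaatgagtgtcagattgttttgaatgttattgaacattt
Last 60 bases, Gt(ROSA)26Sor-204, chr6:113067428-113067487: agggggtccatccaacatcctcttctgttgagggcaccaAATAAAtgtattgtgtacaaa
A hexamer starts 27 bases from the end of transcript 201 and 21 bases from the end of transcript 204, and neither hexamer is in this window of transcripts 202 and 203. Of 141515 annotated transcripts of at least 60 bases, 34.5% hold one in the same window. The stretch complementary to the last exon of Thumpd3 is chr6:113067674-113067818, printed on the minus strand as transcripts 202 and 204 carry it.
Stretch antisense to Thumpd3: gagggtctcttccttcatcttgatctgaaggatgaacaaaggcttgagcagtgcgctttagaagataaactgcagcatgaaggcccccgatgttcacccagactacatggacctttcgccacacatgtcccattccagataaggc
Transcripts 202 and 204 end inside the Thumpd3 body. Whether the authors' counting used strand or introns is not given in the sources used here. Without strand, reads from the shared bases of Gt(ROSA)26Sor and Thumpd3 cannot be told apart, and the matrices do not separate transcripts.

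The libraries held 4939 (L-cDC) and 6674 (M-cDC) barcodes with a median of 7652 and 7156 UMIs (unique molecular identifiers, 1 for each captured RNA molecule), and 6 barcodes occurred in both. After the cell filters 3963 and 5607 cells remained, with 36828806 and 48219384 UMIs. The kept cells carried the cDC genes Flt3 (150 and 158 CPM, the UMIs of a gene in the summed cells scaled to a common total) and Zbtb46 (38.1 and 44.7 CPM). The libraries differed in makeup: cDC1-like cells were 5.12% of L-cDC and 12.4% of M-cDC, cDC2-like cells 2.83% and 16.3%, and mature Ccr7+ DC-like cells 59.7% and 50.1%. The cDC2-like class is cluster 8 alone. Cluster 17, left unnamed and outside these classes, held 268 L-cDC cells (6.76%) and 277 M-cDC cells (4.94%). Whether cluster 17 contains cDC2 cells was not tested, so the cDC2-like shares hold for cluster 8 only. Cluster 5, a mature cluster led by Mucl1, Nrp2 and Clu, held 362 L-cDC cells and 2 M-cDC cells. Cluster 16, led by Gzmc, Xcl1 and Gzma, held 202 and 1, and a B-like cluster held 53 and 0. The classes kept their markers: Xcr1 stood at 539 and 586 CPM in cDC1-like cells, Sirpa at 199 and 230 CPM in cDC2-like cells and Ccr7 at 1194 and 1420 CPM in mature cells. The cDC2-like cells of L-cDC had more of the mature markers Fscn1 (118 and 55.2 CPM) and Ccr7 (23.9 and 16.1 CPM). In cDC1-like cells Fscn1 was at 23.1 and 15.1 CPM. The lymphocyte genes Cd3e, Ncr1 and Cd79a were at most at 1.51 CPM in these 3 classes, so lymphocyte RNA was near 0 there.

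Gt(ROSA)26Sor was lower in L-cDC than in M-cDC in all 3 DC classes, with a counting interval that took in 1 in cDC2-like cells. The gap was widest in cDC1-like cells, the class by which the gene was chosen, so nothing is read from that. The ratio intervals of the 3 classes overlapped. In cDC1-like cells, 67 UMIs in 203 L-cDC cells gave 20.3 CPM (15.8 to 25.8). In M-cDC, 327 UMIs in 694 such cells gave 33.7 CPM (30.2 to 37.6). The level was 1.66-fold lower in L-cDC (1.27 to 2.19), and the intervals of the libraries did not overlap. With each cell thinned once at random to 3000 UMIs this direction turned, to a ratio of 1.07 (0.614 to 1.80) from 20 and 63 UMIs. Of 4733 genes that had 50 UMIs or more in total and reached 20 CPM in 1 library, 0.655% were lower in L-cDC by 1.5-fold or more, and 0.190% had a ratio below that of Gt(ROSA)26Sor. The gene was chosen with this contrast known, and nothing is read from its place.

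In cDC2-like cells, 23 UMIs in 112 L-cDC cells gave 25.0 CPM (15.9 to 37.6), and 193 UMIs in 912 M-cDC cells gave 29.8 CPM (25.8 to 34.4). L-cDC divided by M-cDC gave 0.839 (0.519 to 1.30). With 23 UMIs a gap of the size in cDC1-like cells lay inside this interval, and so did no gap at all. With clusters cut at Leiden resolution 2.0 the ratio was 1.11. In mature Ccr7+ DC-like cells the levels were 14.5 CPM (12.9 to 16.2) and 19.97 CPM (18.1 to 22.0), from 306 and 422 UMIs, with a ratio of 0.724 (0.623 to 0.841). These intervals did not overlap, although the higher level missed the 20 CPM minimum. Cells in division, identified by Mki67, Top2a and other cycle genes, gave 18.9 and 23.5 CPM and a ratio of 0.804 (0.512 to 1.23). Over all kept cells the levels were 16.8 CPM (15.5 to 18.1) and 25.0 CPM (23.6 to 26.5), with a ratio of 0.669 (0.606 to 0.738).

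Thumpd3, on the side where Gt(ROSA)26Sor ends, had a ratio whose interval took in 1 in cDC1-like and in cDC2-like cells. The cDC1-like cells of L-cDC had 44.3 CPM (37.4 to 52.1) and those of M-cDC 49.2 CPM (44.9 to 53.8), a ratio of 0.900 (0.743 to 1.09). Cells thinned to 3000 UMIs gave 1.56 (1.06 to 2.27), from 43 and 93 UMIs. In cDC2-like cells the values were 48.97 CPM (35.7 to 65.5) and 47.8 CPM (42.6 to 53.4), a ratio of 1.03 (0.733 to 1.41). The libraries overlapped in both classes. Each library clustered alone gave 0.443 (0.210 to 0.826) in cDC2-like cells, from 10 UMIs in L-cDC. Mature Ccr7+ DC-like cells had little of it, 11.9 CPM (10.4 to 13.4) and 14.2 CPM (12.6 to 15.8), with a ratio of 0.838 (0.706 to 0.994). Over all kept cells, though, Thumpd3 was at 20.7 CPM (19.3 to 22.3) and 31.3 CPM (29.7 to 32.9), a ratio of 0.664 (0.608 to 0.725) that is as low as the ratio of Gt(ROSA)26Sor.

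Setd5, which starts beside Gt(ROSA)26Sor, was lower in L-cDC in the 3 DC classes, with an interval that took in 1 in cDC1-like and in cDC2-like cells. In cDC1-like cells it stood at 49.2 CPM (41.9 to 57.3) and 54.7 CPM (50.1 to 59.5), a ratio of 0.899 (0.749 to 1.07). In cDC2-like cells the values were 55.5 CPM (41.3 to 73.0) and 73.6 CPM (67.1 to 80.5), a ratio of 0.754 (0.554 to 1.01). The libraries overlapped in both classes. In mature Ccr7+ DC-like cells Setd5 was at 84.7 CPM (80.8 to 88.7) and 101 CPM (97.2 to 106), with a ratio of 0.835 (0.783 to 0.889) and no overlap. Dividing cells gave 46.6 CPM (36.3 to 59.01) and 72.4 CPM (65.1 to 80.4), a ratio of 0.644 (0.490 to 0.835), which is 1.55-fold lower in L-cDC. Over all kept cells the ratio was 0.913 (0.870 to 0.958).

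**Figure D2:**
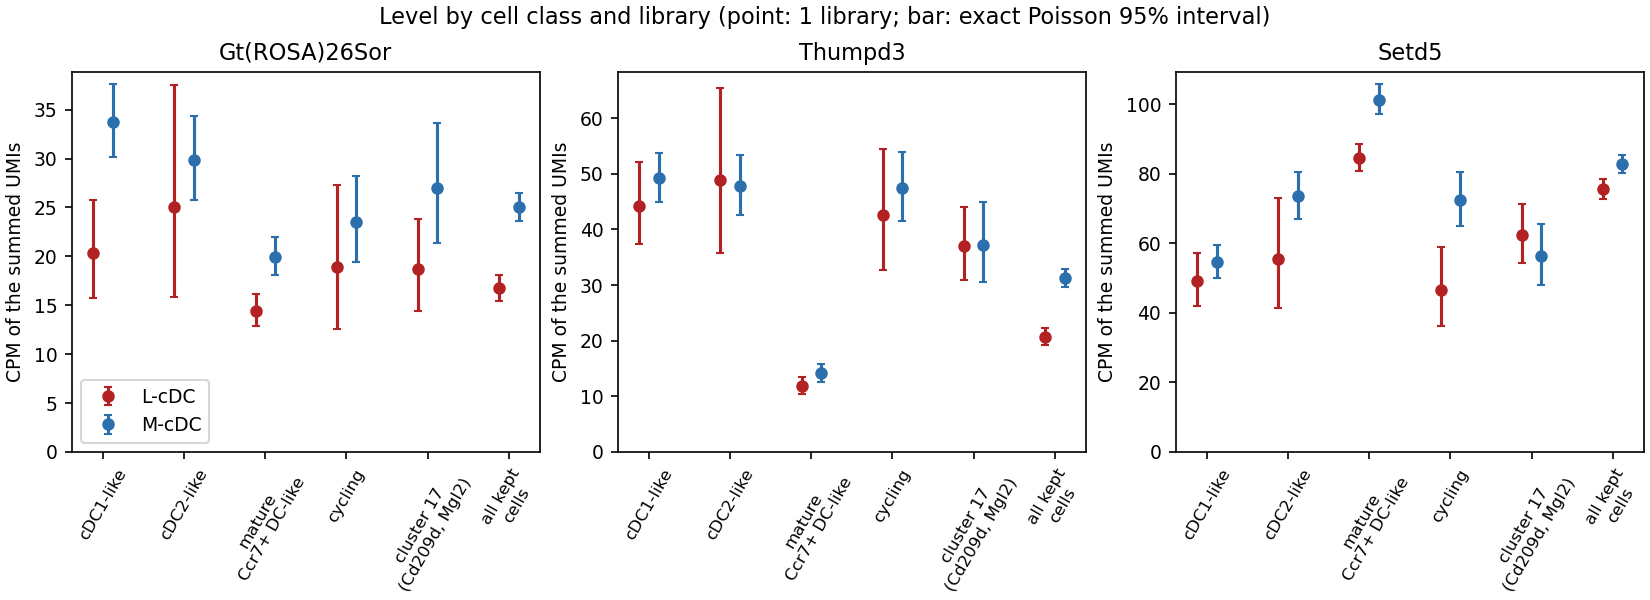
Level of each gene as CPM of the summed UMIs (y axis from 0) in 6 sets of cells. Each point is 1 library and each bar its exact Poisson 95% interval. Gt(ROSA)26Sor in L-cDC lies below M-cDC in every set, while the Thumpd3 intervals overlap in every set but all kept cells.

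The members past 1.5-fold were counted in each class. In cDC1-like cells 1 of the 3 genes was lower in L-cDC by that size (Gt(ROSA)26Sor), beside 0.655% of 4733 genes. That gene was chosen by this contrast, so nothing is read from the count. None of the 3 was lower by that size in cDC2-like cells, where 4.03% of 5358 genes were. In mature Ccr7+ DC-like cells Setd5 alone met the minimum of 20 CPM and did not reach 1.5-fold, beside 0.55% of 4364 genes. In dividing cells 1 of the 3 was lower by that size (Setd5, 1.55-fold), beside 4.66% of 5552 genes. Over all kept cells 1 of 3 (Thumpd3, 1.51-fold lower) was past it, which ended with the clusters at the M-cDC mix (ratio 0.900), at equal weights (0.815) and with thinned cells (0.734), and Gt(ROSA)26Sor at 1.49-fold lay just inside, beside 5.45% of 5029 genes. None of the 3 was higher in L-cDC by 1.5-fold in any class. Genes that were made up 0.401% in cDC1-like, 3.68% in cDC2-like, 1.21% in mature and 2.35% in all kept cells. A lower level of any size was common: it was seen in 68.4% of considered genes in cDC1-like, 51.2% in cDC2-like, 58.6% in mature and 62% in all kept cells.

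**Figure D3:**
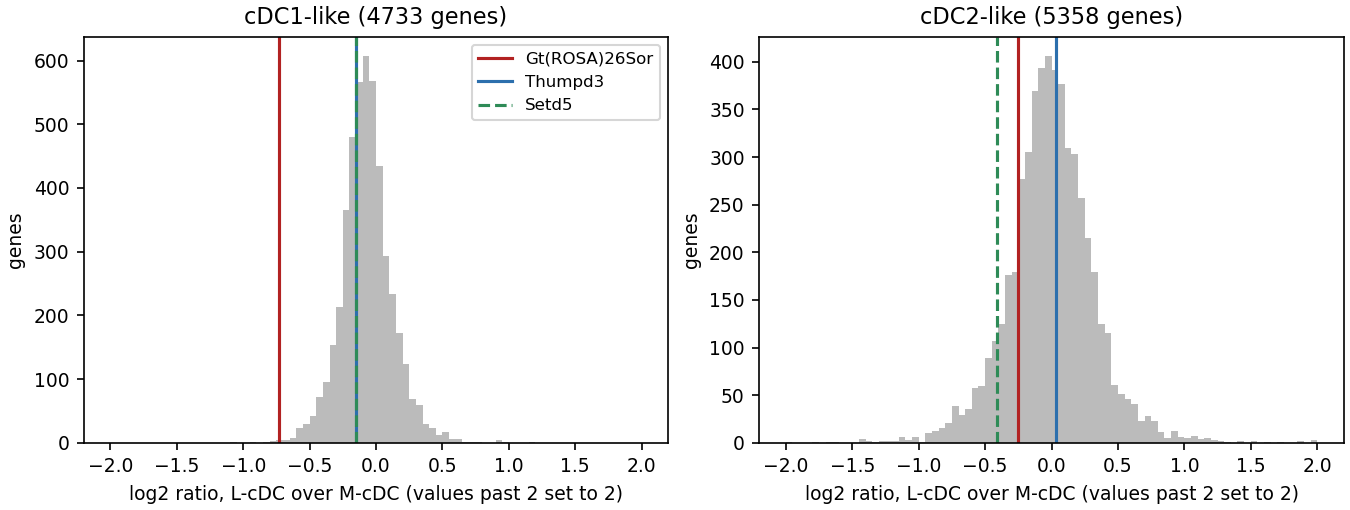
Distribution of the log2 ratio of L-cDC over M-cDC over all genes with enough UMIs (y axis: number of genes), in cDC1-like and cDC2-like cells, with the 3 genes as vertical lines. Gt(ROSA)26Sor lies at -0.73 in the left tail for cDC1-like cells and at -0.25 within the bulk for cDC2-like cells, where the spread of all genes is wider.

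The clusters showed how far the differences were shared. Among 12 clusters with at least 50 cells in each library, Gt(ROSA)26Sor was lower in L-cDC in 12, with a median ratio of 0.706 and a range from 0.255 to 0.887. Of 5029 genes, 0.895% were lower in all 12 and 1.49% were higher in all 12. The interval lay below 1 in 4 of the 12: cluster 13, which is the cDC1-like class, clusters 0 (0.733, 0.556 to 0.966) and 6 (0.627, 0.432 to 0.894) of the mature class, and cluster 17. Cluster 17, an unnamed cluster led by the lectin genes Cd209d, Mgl2 and Cd209a, held 268 and 277 cells. Its best-scoring marker list was that of plasmacytoid dendritic cells (score 1.75), and Siglech was among its 10 leading genes. Gt(ROSA)26Sor stood in cluster 17 at 18.7 CPM (14.4 to 23.8) and 27.0 CPM (21.3 to 33.6), a ratio of 0.692 (0.490 to 0.975). The lowest ratio came from cluster 10, a set of cells with a median of 1975 and 1865 UMIs, and rests on 3 UMIs in L-cDC and 5 in M-cDC. The ratio in cluster 12 rests on 5 and 4 UMIs. Of the 44 other genes that were lower in all 12 clusters, 3 had a lower median log2 ratio than Gt(ROSA)26Sor: Mapk14, Naaa and Pid1, named here after their values were seen. The count and the median include cluster 13, the contrast by which Gt(ROSA)26Sor was chosen, so nothing is read from its place.

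Thumpd3 was lower in L-cDC in 8 of the 12 clusters (at least as many in 40.4% of genes), with a median ratio of 0.833. Its interval lay below 1 in cluster 6 (0.575, 0.349 to 0.916) and in cluster 7 (0.566, 0.319 to 0.967), both of the mature class. In both its ratio was below that of Gt(ROSA)26Sor (0.627 and 0.887). In cluster 17 it was at 37.1 and 37.2 CPM. Setd5 was lower in 10 of the 12 (at least as many in 12.7% of genes), with a median ratio of 0.895. Its interval lay below 1 in cluster 0 (0.888, 0.795 to 0.992) and cluster 3 (0.616, 0.465 to 0.809), the latter led by Mdk, and in cluster 17 the ratio was 1.11 (0.901 to 1.37).

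**Figure D4:**
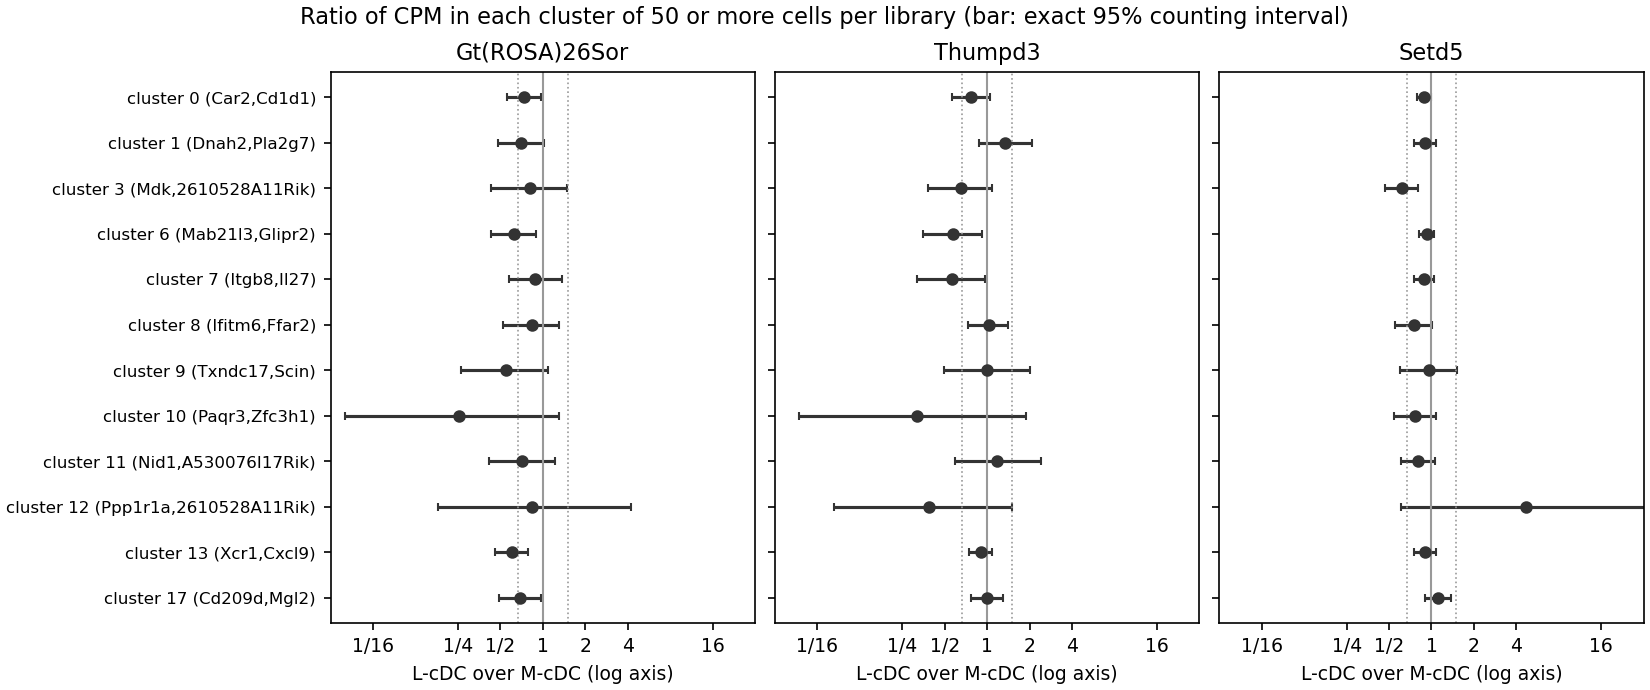
Ratio of CPM, L-cDC over M-cDC (log axis), for each gene in the 12 clusters with at least 50 cells per library, with exact 95% counting intervals. The solid line is a ratio of 1 and the dotted lines are 1.5-fold either way; all 12 Gt(ROSA)26Sor points lie left of 1, and the Setd5 interval of cluster 12, which rests on 7 and 1 UMIs, runs past the axis.

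The 12 clusters with at least 50 cells in each library ranked differently by Gt(ROSA)26Sor level in the 2 libraries. In M-cDC the level was highest in the cDC1-like cluster (33.7 CPM), followed by the cDC2-like cluster (29.8 CPM), cluster 11 (29.2 CPM), cluster 10 (28.5 CPM) and cluster 17 (27.0 CPM), and lowest in clusters 9 (15.2 CPM) and 12 (12.2 CPM). In L-cDC it was highest in the cDC2-like cluster (25.0 CPM), followed by cluster 11 (20.8 CPM) and the cDC1-like cluster (20.3 CPM), and lowest in clusters 9 (8.41 CPM) and 10 (7.27 CPM). Neighbours in either order had overlapping intervals. The cDC1-like cluster was first in M-cDC but not in L-cDC, where it was at the level of cluster 7 (20.3 CPM), a mature cluster. This change of place rests on the values by which the gene was chosen, so nothing is read from it. The clusters found almost only in L-cDC gave 13.98 CPM (cluster 5, 55 UMIs), 22.9 CPM (cluster 16, 47 UMIs) and 22.8 CPM (B-like, 9 UMIs).

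The neighbours had patterns of their own over the clusters. Thumpd3 lay between 42.6 and 49.2 CPM in cDC1-like, cDC2-like and dividing cells and between 7.16 and 19.4 CPM in mature clusters 0, 1, 6, 7 and 9 of either library. Setd5 was higher in mature cells as a class than in cDC1-like cells, but not in mature cluster 9 (21.7 and 22.7 CPM). It was highest in the low-depth cluster 10 (240 and 314 CPM, where Malat1 was among the 10 leading genes) and in mature cluster 7 (132 and 148 CPM), and lowest in cluster 12 (14.3 and 3.05 CPM). Across the same 12 clusters in L-cDC, the highest level was 3.44 times the lowest for Gt(ROSA)26Sor, 6.84 times for Thumpd3 and 16.7 times for Setd5.

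Because the libraries differ in makeup, the change of each gene over the 12 clusters (3132 and 5205 cells) was split into levels and mix. With the clusters of both libraries weighted by the M-cDC mix, the ratio of Gt(ROSA)26Sor was 0.697, against 0.641 as observed. The M-cDC levels taken at the L-cDC mix gave 0.926. For Thumpd3 the same values were 0.900 at the M-cDC mix, 0.692 observed and 0.792 for the mix alone. For Setd5 they were 0.876, 0.960 and 1.08, so that its mix and its levels lay on opposite sides of 1. The mix gave the larger departure from 1 for Thumpd3, and the levels within clusters gave the larger one for Gt(ROSA)26Sor. The 12 clusters include the cDC1-like cluster, the contrast by which Gt(ROSA)26Sor was chosen. Nothing is therefore read from the split of Gt(ROSA)26Sor or from its difference to Thumpd3.

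Taken as a share of the UMIs of the 3 genes together, which does not depend on the totals of the libraries, Gt(ROSA)26Sor made up 17.9% (14.1 to 22.1) in L-cDC and 24.5% (22.2 to 26.9) in M-cDC of the cDC1-like cells. These exact Clopper-Pearson intervals did not overlap. They rest on the same UMIs as the level by which the gene was chosen, so nothing is read from this gap. In cDC2-like cells the shares were 19.3% (12.7 to 27.6) and 19.7% (17.3 to 22.4), and in mature Ccr7+ DC-like cells 13.0% (11.7 to 14.5) and 14.7% (13.5 to 16.1), both overlapping. The ratio of Gt(ROSA)26Sor stood below those of Thumpd3 and Setd5 in cDC1-like cells (0.603, 0.900 and 0.899). It did so in mature cells too (0.724, 0.838 and 0.835). In both classes its ratio interval overlapped those of the 2 neighbours.

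Few cells carried many UMIs of Gt(ROSA)26Sor. A UMI was found in 56 of 203 cDC1-like cells of L-cDC (27.6%, 21.6 to 34.3) and in 256 of 694 of M-cDC (36.9%, 33.3 to 40.6), where median depths were 16002 and 13987 UMIs. At least 2 UMIs were found in 11 and 64 of these cells. In cDC2-like cells the shares were 17.9% and 17.8%, and in mature cells 11.6% (10.4 to 13.0) and 13.5% (12.2 to 14.8). When each cell was thinned once at random to 3000 UMIs, which left out 0 and 8 cDC1-like cells, the shares became 8.87% (5.34 to 13.7) and 8.89% (6.87 to 11.3) in cDC1-like cells and 4.71% (3.88 to 5.66) and 6.16% (5.29 to 7.13) in mature cells. The mean of per-cell CPM, which weights cells equally as thinning does but keeps every UMI, gave 21.3 and 35.3 CPM and a ratio of 0.604 in cDC1-like cells. No class here is known to lack the transcript, so no share from free RNA could be set beside these.

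The other genes around the locus gave the following values. Of 74 other genes within 1 Mb of Gt(ROSA)26Sor, 45 had a row in the files, and 9 had enough UMIs in cDC1-like cells. None of the 9 was lower or higher by 1.5-fold, beside 0.655% and 0.401% of all genes, so the count is near the background. Their median log2 ratio was -0.094, beside -0.075 over all 4733 genes. The nearest of them were Srgap3 (0.852, 0.674 to 1.07) and Mtmr14 (0.978, 0.807 to 1.18), a lipid phosphatase. Jagn1, an endoplasmic reticulum protein, was the highest (1.23, 0.970 to 1.55). In cDC2-like cells 11 genes were considered with a median of -0.15 (-0.0090 over all genes), and 1 was lower by over 1.5-fold, Tada3 (0.618, 0.322 to 1.09). In mature cells 7 were considered, 7 of them lower, where 58.6% of all 4364 considered genes were lower. Their median was -0.15 (-0.035 over all genes). Among them Vhl, the von Hippel-Lindau tumour suppressor, had a ratio of 0.894 (0.855 to 0.936), and Arpc4, an actin-nucleating subunit, had 0.912 (0.869 to 0.958).

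**Figure D5:**
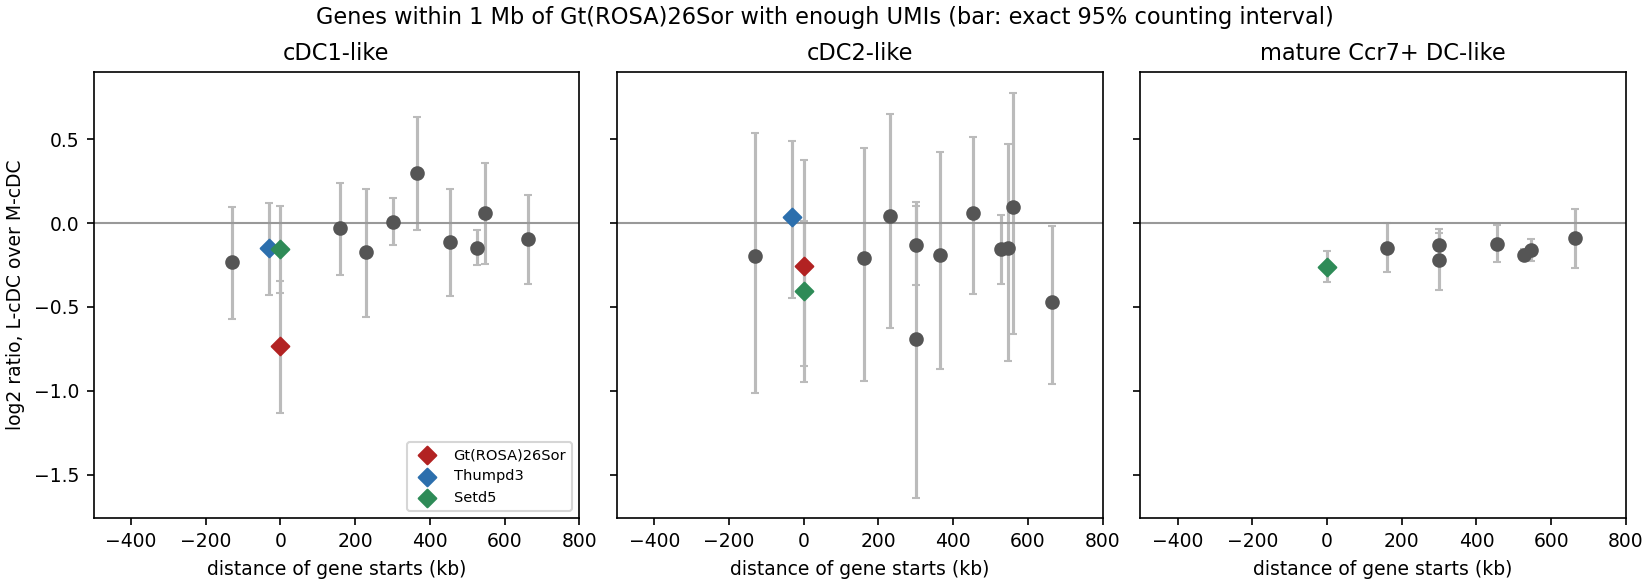
Log2 ratio of L-cDC over M-cDC for genes within 1 Mb that had enough UMIs, against the distance of their start from that of Gt(ROSA)26Sor in kb, with exact 95% counting intervals. In cDC1-like cells Gt(ROSA)26Sor is the lowest point while Setd5 beside it is at -0.15; in mature cells Gt(ROSA)26Sor and Thumpd3 are missing because they were under 20 CPM.

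Genes that work with the neighbours were listed apart from how they moved in these cells. Of 10 genes of tRNA methylation or with a THUMP domain, Thumpd3 included, 6 had enough UMIs in cDC1-like cells and 6 in cDC2-like cells, with none past 1.5-fold and medians of -0.073 and -0.057. Trmt1, another tRNA guanosine methyltransferase, was at 27.6 and 21.1 CPM in cDC1-like cells (1.31, 1.01 to 1.68). Trmt112, the partner of THUMPD3, was at 64.5 and 46.8 CPM in mature cells (1.38, 1.27 to 1.498). In the mature class it was thus higher in L-cDC while Thumpd3, under the 20 CPM minimum there, was lower. Over all kept cells Trmt112 was lower in L-cDC (0.783, 0.752 to 0.814), and so it was in 9 of the 12 clusters. Of 15 partners and relatives of SETD5, 12 were considered in cDC1-like cells, 14 in cDC2-like cells and 11 in mature cells, with none past 1.5-fold in any and medians of -0.028, 0.061 and -0.014. In cDC1-like cells the NCoR complex subunits Gps2 (1.34, 1.11 to 1.62) and Tbl1x (1.23, 1.01 to 1.48) were higher in L-cDC. Wdr61 of the PAF1 complex (0.773, 0.616 to 0.964) and the bromodomain gene Brd2 (0.833, 0.734 to 0.945) were lower there. In mature cells Rtf1, which works with the PAF1 complex, had 1.20 (1.12 to 1.28), and the paralog Kmt2e 1.09 (1.04 to 1.15).

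Of 20 other long noncoding RNAs, 12 had a row and 7 had enough UMIs in each class. None was lower by 1.5-fold in any of the 3 classes, where 0.55% to 4.03% of all genes were. Epb41l4aos was higher in L-cDC, by 1.55 (1.31 to 1.84) in cDC1-like cells, 1.43 (1.004 to 1.99) in cDC2-like cells and 1.54 (1.34 to 1.76) in mature cells. Tug1 had 0.861 (0.684 to 1.08) in cDC1-like cells, and Snhg6, a host gene of small nucleolar RNAs, 1.07 (0.899 to 1.27). Of 13 genes in steady use in most cells, 11 were considered in each class, with none past 1.5-fold and a median of -0.12 in cDC1-like cells. Gapdh, a glycolytic enzyme, had 0.871 (0.827 to 0.918) there, and Polr2a, the largest subunit of RNA polymerase II, 0.907 (0.762 to 1.08). With lists of this size, counts of 0 are near the background.

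The pattern over cell types was compared across 32 sums of 1 cluster in 1 library, on log2(CPM + 1), for 8346 genes. The sums share 2 libraries and differ in depth. Most like Gt(ROSA)26Sor were Chst12 (Pearson r 0.80), Ttc5 (0.79), Tmem189 (0.75), Tmem50b (0.73) and Mcfd2 (0.73). Thumpd3 came to 0.62 and Setd5 to 0.28. Most like Thumpd3 were Sla (0.91), Itgb7 (0.90), Rgs2 (0.90), Slc35c2 (0.90) and Ifngr1 (0.89). Setd5 was nearest to Cdk12 (0.96), Snapc3 (0.96), Rbm39 (0.95), Zdhhc21 (0.94) and Ptbp2 (0.94), and had -0.052 with Thumpd3. With the log2 median UMIs per cell the 3 members had 0.32, 0.48 and -0.097.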

How the data were processed

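Splenic dendritic cells were profiled with the droplet 3′ kit of 10x Genomics and sequenced on an MGI instrument, per the labels' protocols. L-cDC is 1 library of tdTomato-positive cells and M-cDC is 1 of tdTomato-negative cells. Raw UMI counts were deposited for each gene and barcode. Per the file headers, Cell Ranger 6.1.2 wrote them, and the submitters' processing notes name GRCm38 (mm10). The annotation release and any counting of introns are not given in the sources used here. The deposited files of other content list the genes and the barcodes called as cells. Counts on the reporter's own sequence were not analysed here.

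Barcodes with under 500 genes or over 10% mitochondrial UMIs were removed, leaving 4086 and 5848. Scrublet, in scanpy 1.11.5, was run per library with an expected rate of 8%. Its automatic threshold of 0.632 marked 3 cells of L-cDC, so the M-cDC threshold of 0.277 was applied to both, a choice made after seeing the thresholds, and removed 123 and 241 cells. Cells were clustered together on 2000 variable genes, 30 components and 15 neighbours (Leiden resolution 1.0, seed 1). A cluster was named from fixed marker lists when its score was at least 0.3, led the next list by at least 0.25 and had at least 3 markers at 10 CPM. The list of cycle genes needed no lead and did not count as the next list. No other list could have more markers among the 10 leading genes of the cluster. A cluster of low depth also needed a marker of its list among these 10. These naming thresholds were set after a first clustering had been seen.

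UMIs were summed per class and library and divided by their total there (CPM). Exact Poisson 95% intervals go with each level. Ratios have exact conditional binomial intervals and shares exact Clopper-Pearson intervals. The intervals were checked on simulated data. A gene was considered if it reached 20 CPM in 1 library and 50 UMIs in total, and 1.5-fold is a fixed size, not a test. UMIs remove PCR copies, but cells of 1 library are not replicates. Named were the 3 members, considered genes within 1 Mb and the 5 genes most like each member. From each fixed list, up to 4 genes with the largest absolute log2 ratio were named per class. The members and lists were chosen with earlier results of these data known. The scripts ran in Python 3.11.15 with igraph 0.11.9, scikit-learn 1.9.0, pandas 2.3.3, scipy 1.17.1, matplotlib 3.10.9 and numpy 2.4.6.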

Additional observations from a re-analysis of the deposited data

How the results depend on the processing

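Cell filters, doublet removal, clustering, class assignment, the CPM denominator, depth and the level measure were varied 1 at a time, and 4 further settings on the mix of cells, clusters held by 1 library and shared barcodes were chosen after seeing the data. The log2 ratio of Gt(ROSA)26Sor was below 0 in 12 of 13 alternatives in cDC1-like cells, in 11 of 12 in cDC2-like cells, in 14 of 14 in mature cells and in 12 of 12 over all kept cells. The exception in cDC1-like cells was thinning each cell to 3000 UMIs, which gave 0.10 from 20 and 63 UMIs. The exception in cDC2-like cells was Leiden resolution 2.0, at 0.14. Thinning also gave 0.64 for Thumpd3 in cDC1-like cells (-0.15 as reported) and -0.45 over all kept cells (-0.59 as reported), and the cause was not tested beyond the fewer UMIs that remain. With each library clustered alone, Thumpd3 in cDC2-like cells was -1.18, from 10 UMIs in L-cDC. With clusters weighted equally, Thumpd3 over all kept cells was -0.29 and Setd5 -0.25, and at the M-cDC mix Thumpd3 was -0.15. Without clusters held at over 95% by 1 library, Setd5 in mature cells was -0.16 in place of -0.26. Thumpd3 in cDC2-like cells was below 0 in 7 of 12. Genes past 1.5-fold either way numbered 50 in cDC1-like, 413 in cDC2-like, 77 in mature and 392 in all kept cells. They numbered 452, 1071, 324 and 924 with a minimum of 5 CPM and 10, 68, 41 and 177 with 50 CPM. Without mitochondrial, ribosomal protein and immunoglobulin genes in the CPM, there were 91 in cDC1-like and 634 in cDC2-like cells. The median of genes within 1 Mb in mature cells was -0.091 with a minimum of 5 CPM, against -0.15. At Leiden resolution 0.5 no cluster met the cDC2-like rule, and a window of 100 kb held no gene with enough UMIs apart from the members, so neither gave a value. No paired analysis was possible because each group was 1 library. The 112 cDC2-like cells of L-cDC held 23 UMIs of Gt(ROSA)26Sor, which limits the precision there.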
